A study of Drosophila melanogaster with 2 samples.

Results

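The arginine methyltransferase genes of Drosophila melanogaster were examined for peaks of an eGFP fusion of the protein encoded by CG14014 in whole embryos. The genes were taken by symbol from the Ensembl annotation and chosen by earlier results of these same peak lists, in which the promoter window of Art3 held a peak of high signal, so their peaks are given as a description and were not tested. There were 9 genes (Art1, Art2, Art3, Art4, Art6, Art7, Art8, Art9 and csul) of 13968 protein-coding genes. Chromatin was immunoprecipitated with an antibody against GFP and sequenced (ChIP-seq). The flies came from the strain CG14014-GFP, which carries an insertion that targets CG14014, and embryos aged 0 to 24 h were used whole, so cell types and stages were pooled. The study had 1 group with 2 biological replicates, both carrying the tagged protein. No untagged group and no control experiment was used here.

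Protein arginine methyltransferases transfer methyl groups from S-adenosylmethionine to arginine side chains of histones, RNA-binding proteins, splicing proteins and ribosomal proteins. Type I enzymes make asymmetric and type II enzymes symmetric dimethylarginine, which is read by Tudor domain proteins. In the fly germ line the type II enzyme csul acts with its partner vls on Sm proteins and Piwi proteins and is needed to assemble the germ plasm.

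A peak is described by its summit, its signal and its global irreproducible discovery rate (IDR). The signal is the authors' own value per peak, without a stated scale. It is compared between peaks of the same list, except in the ratios of replicate 1 to replicate 2, which set 2 lists side by side. The global IDR estimates how many of the peaks at or above a given rank would not recur, as a share, and the thresholded lists hold peaks at 0.01 or less. The authors deposited a conservative list of 3216 peaks from the true replicates and a longer optimal list of 5675 peaks from the pooled reads. Of the 3216 conservative peaks, 3088 were in the optimal list unchanged. Further lists held 4617 peaks for replicate 1 and 2737 for replicate 2. The full rankings behind these lists hold many weak peaks. No file used here holds read counts, and depth is therefore unknown. A gene was counted when a summit lay within 500 bp of any of its transcription start sites (TSS).

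The DNA at the strongest member peaks is shown first, since both peaks of the conservative list lay between head-to-head genes. Each sequence is read from the release 6 reference (dm6), 5′ to 3′. Capitals mark matches, on either strand, to any of 7 words, namely TATCGATA (the DNA replication-related element), TATAAA (the TATA word), TTAAAA (AT-rich), CAGCTG (an E-box), GAGAG (the GAGA word), TAATTA (a homeodomain word) and CACGTG (another E-box). The first is the whole interval between the TSS of Art3 on the minus strand and the first TSS of mRpS10 on the plus strand, chr3R:15229409-15229664, plus strand, 256 bp, which overlaps no annotated gene. The conservative summit is its base 129.
Art3 to mRpS10: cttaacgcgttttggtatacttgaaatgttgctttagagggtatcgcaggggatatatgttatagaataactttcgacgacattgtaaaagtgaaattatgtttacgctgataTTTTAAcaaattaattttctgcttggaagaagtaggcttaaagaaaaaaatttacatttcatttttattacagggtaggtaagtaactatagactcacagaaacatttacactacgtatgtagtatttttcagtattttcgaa
The second is the interval between the TSS of Art8 (minus strand) and of dUTPase (plus strand), chr2L:11011087-11011311, plus strand, 225 bp. An exon of the antisense noncoding gene asRNA:CR45778 runs across it. The conservative summit is its base 94.
Art8 to dUTPase: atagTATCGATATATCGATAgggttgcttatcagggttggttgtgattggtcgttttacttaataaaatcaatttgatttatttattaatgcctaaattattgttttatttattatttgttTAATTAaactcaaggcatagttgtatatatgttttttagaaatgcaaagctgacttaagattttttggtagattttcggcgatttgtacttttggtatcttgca
The third is the 150 bp upstream of Art4, whose peak was in the optimal list only, at chr3R:9986061-9986210, minus strand. It lies within Glut4EF and CG46467, which are on the opposite strand, and overlaps no exon. The optimal summit is its base 133.
Art4 upstream: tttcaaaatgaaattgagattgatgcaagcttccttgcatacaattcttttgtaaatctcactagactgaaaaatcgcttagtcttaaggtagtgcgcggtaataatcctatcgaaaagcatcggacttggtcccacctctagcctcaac
The last is the interval between Art1 (minus strand) and Mcm5 (plus strand), which held no summit of a thresholded list, at chr3R:10788227-10788523, plus strand, 297 bp.
Art1 to Mcm5: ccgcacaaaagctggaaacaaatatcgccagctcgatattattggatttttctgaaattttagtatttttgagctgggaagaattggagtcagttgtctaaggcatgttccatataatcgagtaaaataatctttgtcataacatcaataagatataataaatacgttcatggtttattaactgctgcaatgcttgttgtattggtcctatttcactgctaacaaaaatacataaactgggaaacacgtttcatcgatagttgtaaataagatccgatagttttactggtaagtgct

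Art3 and Art8 had a promoter summit in the conservative list, and the other 7 genes had none. This was 2 of 9 genes, beside 14.6% of all protein-coding genes. In the optimal list Art4 joined them, giving 3 of 9 beside 21.9% of all genes. Art3 and Art8 were again the only members with a summit when each replicate's list was taken alone (18.6% of all genes in replicate 1, 13.2% in replicate 2). With so few members, these counts stand near the background of each list.

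The members differed widely in signal. In the ranking of the true replicates 8 of the 9 genes had at least 1 summit in the promoter window, beside 69.3% of all genes. The median of their highest signal was 36.9, beside 36.7 for the 9684 genes with any such summit. Art3 (1667), Art8 (109.8), Art4 (57.4) and Art1 (44.02) were above that median, and csul, Art2, Art6 and Art7 were under it. In the ranking of replicate 1, 8 of 9 members had a summit (70.2% of all genes) with a median of 20.3, beside 24.6 for all genes. In that of replicate 2, 8 of 9 had one (64.1% of all genes) with a median of 23.2, beside 17.98 for all genes.

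**Figure D1:**
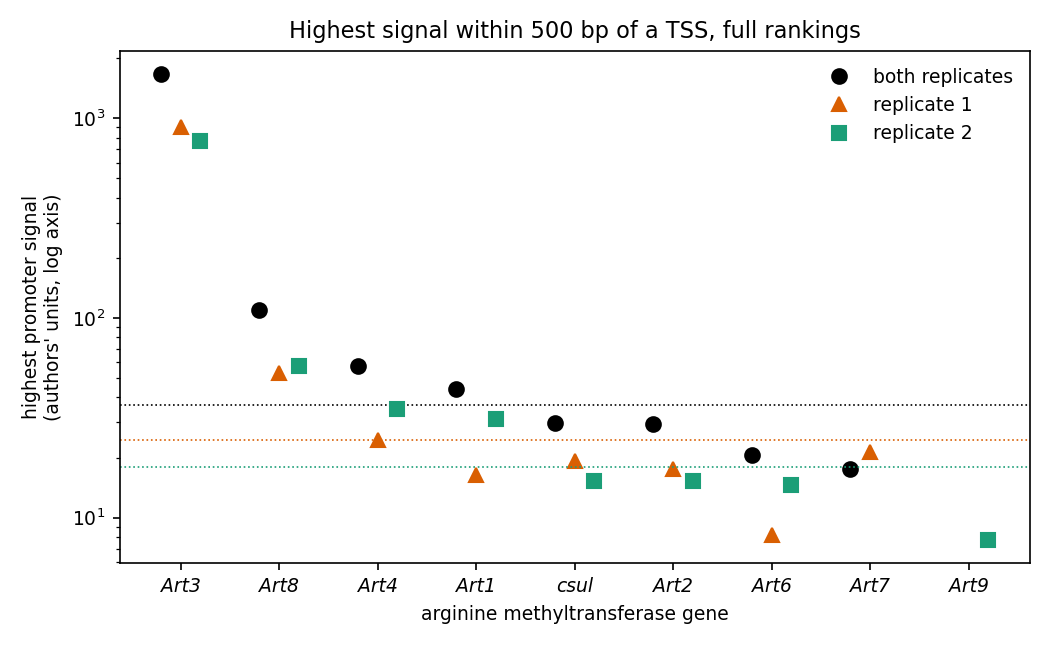
Highest peak signal within 500 bp of a TSS for each of the 9 genes in the rankings of both replicates (circles), replicate 1 (triangles) and replicate 2 (squares), on a log axis in the authors' units. Dotted lines give the median over all protein-coding genes with a summit in the same ranking; Art3 reached 1667, 905 and 765, and a missing symbol means that no ranked summit lay in the window.

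Art3 is the fly counterpart of the mammalian enzyme PRMT3, which methylates a protein of the small cytoplasmic ribosomal subunit. Its promoter peak covered 3R, 15229380 to 15229687, had a signal of 1667 and ranked 6 of 3216. In the lists of the single replicates the signal was 905 in replicate 1 (rank 8 of 4617) and 765 in replicate 2 (rank 10 of 2737), a ratio of 1.18 between them. That ratio is also the median over the 1558 conservative promoter peaks with a peak in both replicate rankings (1.18, quartiles 0.887 and 1.60). Among all protein-coding genes, 5 had a higher promoter signal in the conservative list.

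The summit at Art3 lay at the same base, 15229538, in both replicates, and 1 bp from it in the conservative list. Replicate summits coincided in 36 of the 1558 promoter peaks (2.31%), and differed by a median of 20 bp (quartiles 8 and 44). Among the 192 promoter peaks ranked 1 to 300 they coincided in 10 (5.21%), with a median difference of 10 bp. The peaks of the replicates at Art3 overlapped over 280 bp, or 97.6% of the peak of replicate 1 and 100% of that of replicate 2.

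The Art3 summit was shared with mRpS10, which encodes a protein of the small mitochondrial ribosomal subunit. The summit was 129 bp upstream of the Art3 TSS and 128 bp upstream of the nearer mRpS10 TSS. In both replicate lists the distances were 130 bp and 127 bp. The starts are 257 bp apart, and the conservative summit lay 0.5 bp from the midpoint between them. The peak can therefore not be assigned to either gene by distance, and a rule that takes only the nearest TSS gives it to mRpS10 by 1 bp. No other annotated gene had a TSS within 500 bp of the summit.

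Art8 is a further member of the family. Its peak spanned 11011015 to 11011344 on 2L, with a signal of 109.8, and ranked 1930 of 3216, under the median of 145 over all genes with a promoter summit in that list. The signal was 52.7 in replicate 1 (rank 2933 of 4617) and 57.6 in replicate 2 (rank 1647 of 2737), a ratio of 0.916. That ratio is within the quartiles over the conservative promoter peaks (0.887 and 1.60). The global IDR was 0.00116 in the ranking of the true replicates, 0.00174 for replicate 1 and 0.0003 for replicate 2. The peak thus passed 0.01 in each of these rankings and was much weaker than that at Art3.

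Art8 shared its summit with dUTPase, which encodes the enzyme that hydrolyses dUTP and so limits uracil in DNA. The conservative summit was 94 bp upstream of Art8 and 132 bp upstream of dUTPase, 19 bp from the midpoint of the 226 bp between the starts. It was 108 bp and 118 bp away in replicate 1, and 88 bp and 138 bp away in replicate 2. The replicate summits were 20 bp apart. Art8 was the nearer gene in all of these lists, by 10 bp in replicate 1 and by 50 bp in replicate 2.

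**Figure D2:**
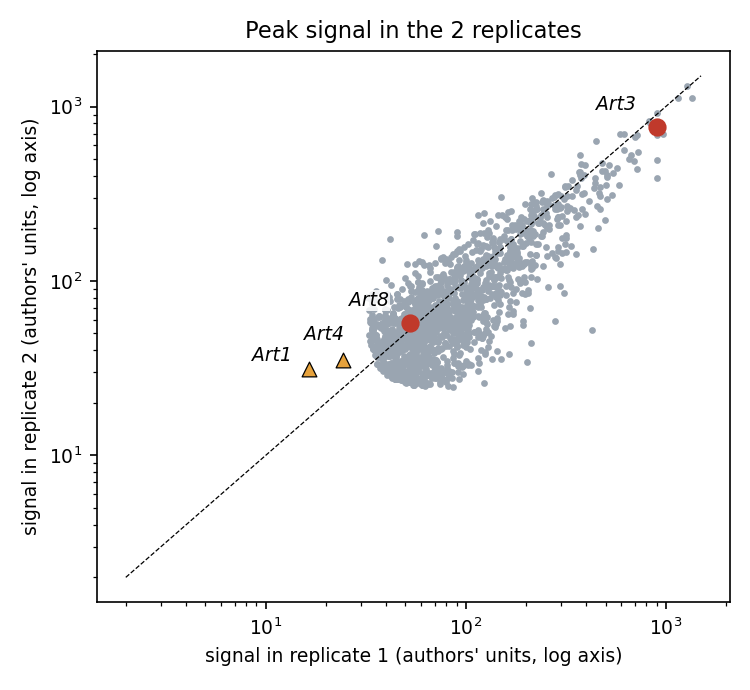
Signal in replicate 1 (x axis) and replicate 2 (y axis), both log axes in the authors' units, of the 1558 conservative promoter peaks (grey), of the peaks at Art3 and Art8 (red) and of the strongest ranked summits at Art4 and Art1 (triangles). The dashed line marks equal values; Art3 lies at the upper end and Art8 within the cloud, where 1009 of 1569 promoter peaks have a higher signal, and Art4 and Art1 lie at lower signals in replicate 1 than the conservative peaks.

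Art4 is the counterpart of mammalian CARM1, a histone H3 arginine methyltransferase that acts as a transcriptional coactivator. Its peak, at 3R, 9985913 to 9986242, was in the optimal list only, with a signal of 57.4 and rank 4785 of 5675. The summit lay 18 bp upstream of the TSS, closer than those at Art3 and Art8. No other gene had a TSS within 500 bp. The global IDR was 0.00699 in the ranking of the pooled reads and 0.0424 in that of the true replicates. The replicate rankings held summits 2 bp (signal 24.5, global IDR 0.188) and 19 bp (signal 35.02, global IDR 0.0674) upstream of the TSS in replicates 1 and 2. Both replicates thus had a summit at the Art4 start, and neither passed the threshold alone.

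Art1, the counterpart of PRMT1, which makes much of the asymmetric dimethylarginine in animal cells, was the member just outside the optimal list. Its strongest summit had a signal of 44.02 and lay 73 bp downstream of the TSS, with a global IDR of 0.0213 in the ranking of the pooled reads and 0.345 in that of the true replicates. The strongest summit of replicate 1 lay 10 bp upstream of the TSS (signal 16.4, global IDR 0.292). That of replicate 2 lay 32 bp downstream (signal 31.1, global IDR 0.0324). The ratio of these signals was 0.527, and the replicate summits were 42 bp apart. Art1 is head to head with Mcm5, a subunit of the replicative helicase, at 298 bp, and no thresholded summit lay within 500 bp of Mcm5.

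**Figure D3:**
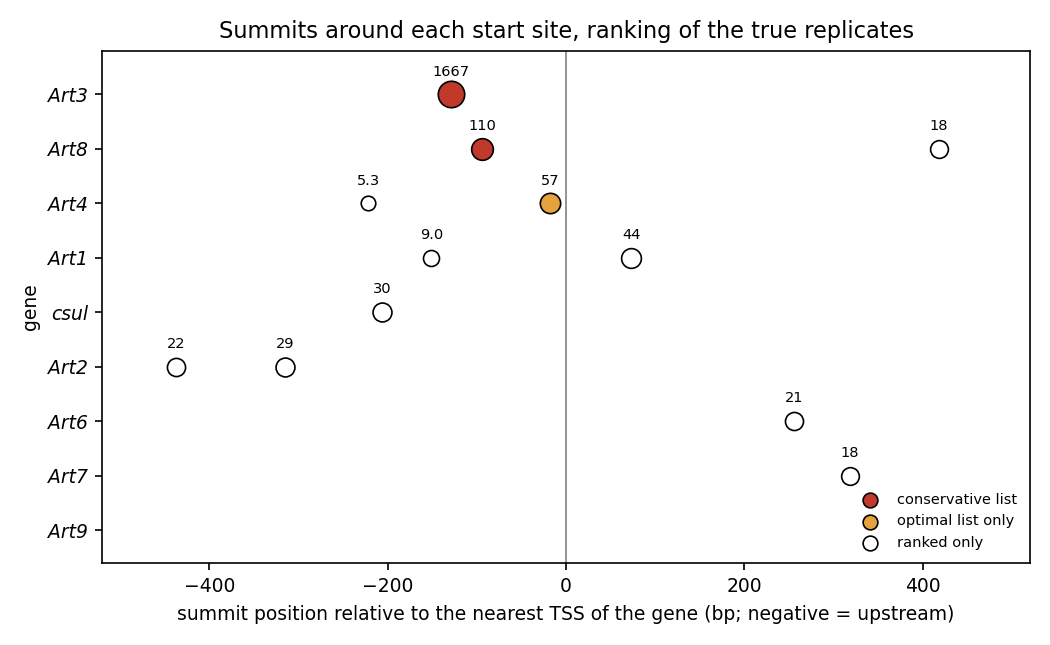
Position of every summit of the ranking of the true replicates within 500 bp of a TSS of each gene (x axis, bp, negative upstream of the nearest TSS of that gene); larger circles and the printed values give the signal. Filled circles are in the conservative list (Art3 at 129 bp and Art8 at 94 bp upstream) or in the optimal list alone (Art4 at 18 bp upstream), and open circles are in the ranking only.

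csul, the counterpart of PRMT5, lies on 2R at 16264652 to 16266959, and its TSS is 33 bp from that of the head-to-head gene fidipidine. It had no summit in any thresholded list. Its strongest ranked promoter summit had a signal of 29.8, under the median of 36.7 for all genes, 206 bp upstream. The strongest was 19.2 in replicate 1, 174 bp upstream, and 15.2 in replicate 2, 385 bp downstream. Replicate 2 also had a weaker summit 233 bp upstream, with a signal of 12.7. The fidipidine start was nearer than that of csul to each of the upstream summits. It lay 173 bp away in the ranking of the true replicates, 141 bp in replicate 1 and 200 bp in replicate 2. From the downstream summit of replicate 2 it was 418 bp away. The nearest conservative summit was 14665 bp away, at CngA, with a signal of 172.

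Art7, the counterpart of PRMT7, lies on 2R at 23076688 to 23079038. Its ranked promoter summits reached a signal of 17.6 in the ranking of the true replicates, and 21.3 in that of replicate 1. Replicate 2 had none in the window. The nearest conservative summit was 4216 bp from the Art7 TSS and had a signal of 115. It lay at the promoter of CG3085 and was shared with Fib.

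Art2, Art6 and Art9 had no thresholded summit in their promoter windows either. Art2, on 2L at 4277696 to 4281324, has 2 TSSs, and its ranked summits had signals of 29.4 (315 bp upstream) and 21.5 (437 bp upstream of the inner TSS). A conservative summit with a signal of 141.7 lay 1436 bp away from Art2, at the promoter of tutl. Art6 (3R, 13944654 to 13945812) and Art9 (3R, 13942238 to 13943460) are neighbours on the same strand. Art6 reached a signal of 20.6 in the ranking of the true replicates. Art9 had no summit there and a single one in replicate 2, with a signal of 7.76. The nearest conservative summit was 30025 bp from Art6 and 27673 bp from Art9, and it was the same peak.

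Of the 9 genes, 4 lay head to head with a protein-coding neighbour whose start was at most 500 bp away (Art1, Art3, Art8 and csul), and 2 of these 4 had a conservative promoter summit. Among all 3815 such genes, 1128 had one (29.6%). None of the other 5 members had one, beside 912 of 10153 genes without a head-to-head partner (8.98%). A divergent arrangement was thus found at both members with a conservative summit, and also at Art1 and csul, which had none.

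At both pairs the summit lay near the middle of the gap. Between head-to-head starts up to 500 bp apart there were 389 conservative summits, each counted once with its closest pair of starts. Their median distance to the midpoint was 35.5 bp, and 133 lay within 20 bp of it (34.2%). With gaps of 150 to 350 bp only, the median was 27 bp over 248 summits, and 42.3% lay within 20 bp. The values of 0.5 bp at Art3 and 19 bp at Art8 are below these medians. A summit within 20 bp of the midpoint is common among such pairs, and a summit as near as that at Art3 is less so.

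**Figure D4:**
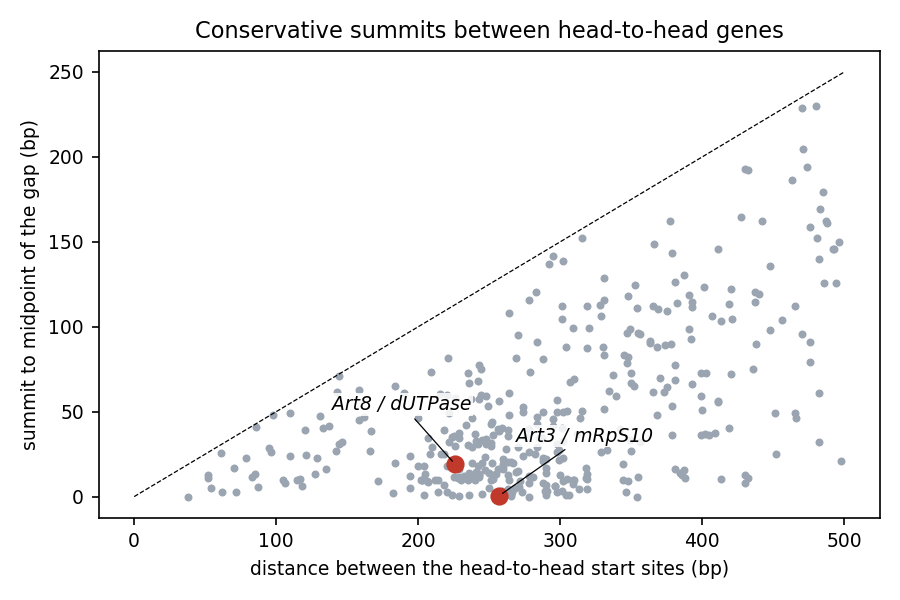
Distance in bp from each of the 389 conservative summits between head-to-head starts to the midpoint of the gap (y axis), against the gap in bp (x axis); the dashed line is the largest distance possible. The summits at Art3 and mRpS10 (0.5 bp) and at Art8 and dUTPase (19 bp) are in red, among many others near the midpoint at gaps of 200 to 300 bp.

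The member summits differed in base composition. GC content within 50 bp of the summit was 23.8% at Art3 and 19.8% at Art8, beside 34.3% ± 10.3 (SD over 1569 conservative promoter summits). Only 13.2% of those summits had a lower GC content than Art3, and 3.06% a lower one than Art8. Windows 300 bp to either side had 42.6% and 51.5% at Art3, and 45.5% and 50.5% at Art8. These windows lay beyond the starts of the head-to-head genes, whereas the summits lay between the starts. The whole intervals between the starts had 30.1% at Art3 and 27.1% at Art8. Values of side windows are not given here for other conservative summits. At Art4 the summit window had 43.6%, and the windows beside it 47.5% and 42.6%. Art4 thus showed no such dip, but it has no head-to-head partner, so the comparison is not a like one. AT-rich promoters were also found at members without a peak. From 250 bp upstream to 50 bp downstream of the TSS, GC content was 27.7% at Art9 and 29.7% at Art6, and 33.3% at Art3 and 30% at Art8, beside a mean of 39.1% over all promoters.

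The words in capitals were not shared by the member peaks. The interval at Art8 and dUTPase held TATCGATA, to which the factor Dref binds, as 2 abutting copies from bases 5 and 13, outside the summit window around base 94. Among the 13968 promoters, taken from 250 bp upstream to 50 bp downstream of the TSS, 9.36% held at least 1 copy. At least 2 copies were in 133 of them (0.952%), of which 24 had a conservative promoter summit (18.0%). The word was in 3.25% of conservative promoter summit windows. The summit window of Art8 held TAATTA, from base 122 of the interval, as did 10.1% of conservative promoter summit windows. The summit window of Art3 held TTAAAA once, read as TTTTAA from base 114 of the interval, as did 37.9% of those windows. Of all promoters, which are longer, 53.4% held it. The summit window of Art4 and that at Art1 held none of the words.

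The promoter of Art3 held CACGTG (4.20% of promoters). TTAAAA (53.4%) was in the promoters of Art1, Art3, Art4, Art6, Art7 and Art9. TATAAA (45.8%) was found only in the promoters of Art6 and Art9, and CAGCTG (17.6%) in those of Art2, Art6 and Art7. GAGAG (29.7%) was in no member promoter, TAATTA (20.4%) was in that of Art8, and csul held none of the 7 words. A word was present or absent only within these windows, and nothing follows from it about the factor.

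The promoter peaks most like that at Art3, by the distance between log2 signals over the 2 replicates among 1558 peaks, were those at Tcs5 and CHMP2B (838 in replicate 1 and 810.02 in replicate 2), at PNPase (899 and 689.8) and at CenG1A and mRpS23 (966 and 697). PNPase is a mitochondrial exoribonuclease. Those nearest to Art8 were at Bhmt (53.6 and 58.6), at CG18178 and CG14174 (53.7 and 59.2) and at Sbat and Prx6a (51.8 and 59.2). These are peaks of like height in the same libraries.

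Genes related to arginine methylation were counted in 5 lists, whose shares in the conservative list lay on both sides of the 14.6% of all genes. Among 9 partners and assembly factors (vls, icln, the Smn complex and others), JMJD6 alone had a promoter summit (11.1%, signal 304), 377 bp upstream and shared with Muted and CG7071. Muted was the nearest of these, at 128 bp. In the optimal list Gem2 joined it. Of 7 Sm protein genes, among them substrates of csul, SNRPG (also SmG) had a conservative promoter summit (14.3%), with a signal of 342 (142 in replicate 1 and 206 in replicate 2). It lay 361 bp upstream of SNRPG and was shared with mthl1, the nearer gene at 188 bp. SmD3 had a summit in the optimal list (107.7).

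Among 16 genes for Tudor domain proteins, which read methylated arginines, and for Piwi proteins and vas, 4 had a conservative promoter summit (25%), with a median signal of 132. The strongest was at papi, whose product binds Piwi proteins at mitochondria, with a signal of 828 (442 in replicate 1 and 363 in replicate 2) and the summit 303 bp upstream. Tdrd3 had 150.5, with the summit 46 bp upstream and shared with bmm. piwi itself had 114.4, with a peak in the list of replicate 2 (71.02) and none in that of replicate 1. The piwi summit was 180 bp upstream and shared with CG12253. vas, an RNA helicase gene, was the fourth (103.4), and its summit was shared with solo. It had a peak in the list of replicate 1 (59.2) and none in that of replicate 2.

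A list of 8 genes was taken for the methionine and S-adenosylmethionine cycle, which supplies the methyl donor. Of these 8, Cbs alone had a conservative promoter summit (12.5%), with a signal of 98.4 and the summit 7 bp upstream. The list was not complete. It left out Bhmt, named above beside Art8, which had a conservative promoter summit with a signal of 123.4. Sam-S, the S-adenosylmethionine synthetase gene, had a promoter peak only in the list of replicate 1 (51.2). Of 15 lysine methyltransferase genes, 4 had a conservative summit (26.7%), with a median signal of 297. Hmt4-20, which methylates histone H4, had a signal of 463, the Polycomb group gene E(z), which methylates histone H3, had 399, and Smyd3 had 195. The summits lay 215 bp upstream of Hmt4-20, 115 bp downstream at E(z) and 117 bp upstream of Smyd3. That at E(z) was shared with Cnep1r2. None of these signals reached that at Art3.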

How the data were processed

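The authors deposited peak lists on dm6, as the notes beside the files say. For the aligner and the caller, a name was not given in the sources used here. Fragments were 200 to 800 bp long, per the labels. The signal of each peak and the −log10 of its global IDR in the ranked lists are the authors' deposited values; no unit of the signal is given. Each conservative peak was found unchanged in the ranking taken as that of the true replicates (3216 of 3216), and each optimal peak in that of the pooled reads (5675 of 5675). The summit is the peak start plus the deposited offset.

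Genes and TSSs came from Ensembl release 115, transposable elements left out, and bases from the release 6 reference sequence (RefSeq assembly); no peak ended beyond one of the 7 chromosome arms. Replicate values at a conservative peak are those of the overlapping peak (at least 1 bp) with the nearest summit in each replicate's own ranking. A gap between head-to-head starts is the difference of their coordinates. Summit windows are 101 bp long. No test was made: there is 1 group, and the members and lists of genes and words were chosen with earlier results of these data known. All 9 members were described. Other genes were named when they shared a member's summit, lay nearest to it, led a related list (up to 3) or had the most like signal. Genes that shared the summit of a named related or nearest gene were named too. So were some genes of the related lists that had a summit in only some of the peak lists. Older names were matched through RefSeq synonyms (SmG, ambiguous there, was taken as SNRPG). Alternatives were other lists, IDR thresholds and windows, the nearest TSS alone and, added after seeing the data, RefSeq starts. The assignment to promoters was tested on simulated data (200 of 200 planted summits recovered). Python 3.11.15, numpy 2.4.6, pandas 2.3.3 and matplotlib 3.10.9 were used. Protein sequences were not used here.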

Additional observations from a re-analysis of the deposited data

How the results depend on the processing

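The count of members with a conservative promoter summit was 2, and it was 1 at a global IDR of 0.001 in the ranking of the true replicates (Art3 alone, since the global IDR at Art8 was 0.00116) and 1 with only the nearest TSS per summit (Art8 alone, since mRpS10 is 1 bp nearer to the Art3 summit). It was 3 in the optimal list and at a global IDR of 0.05, and 2 with windows of 200 or 1000 bp, with RefSeq starts (added after seeing the data) and without either replicate (2 to 2). Without replicate 2 or replicate 1 the signal was 904.6 or 765.5 at Art3, and 52.7 or 57.6 at Art8. These are the values of single libraries, on a lower scale than the 1667 and 109.8 of both. With a window of 1000 bp, 3 genes shared the Art8 summit, asRNA:CR45778 being added. Both replicate peaks at Art3 and Art8 still overlapped at the stricter requirement (97.6% and 100% of the replicate peaks at Art3, 91.8% and 95.4% at Art8). Among the related lists, Sm protein genes went from 1 to 2 in the optimal list and in replicate 1. Genes of the methionine cycle went from 1 to 3 in replicate 1, and partners from 1 to 2 in the optimal list. Genes for Tudor domain and Piwi proteins went from 4 to 6 in the optimal list, 5 in replicate 1 and 3 in replicate 2. Lysine methyltransferase genes stayed at 4 in number, but not all were the same genes. In replicate 1, NSD (108.7 in the conservative list) had no promoter peak, and Su(var)3-9 had one (39.9). No paired analysis was possible because there is 1 group. Read depth is unknown for every list, so a member without a thresholded peak was not detected at the authors' threshold, which does not show a lack of binding.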
